A study of Nothobranchius furzeri with 16 samples.

Results

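The response of adipose tissue to fasting and refeeding was compared between old and young turquoise killifish (Nothobranchius furzeri, an annual fish with a short life), to ask which genes responded differently with age and whether the fasted or the refed state of old fish differed from that of young fish. All 16 of the 16 RNA libraries of the study enter this comparison. There were 4 single-housed male fish of the laboratory strain GRZ-AD in each group: old fasted, old refed, young fasted and young refed. Old fish are labelled as 18 weeks of age and young fish as 7 weeks. The fasted groups had been without food for 72 h when sampled, whereas the refed groups had food for 24 h following a fast of 72 h, so every fish had been fasted and no group was fed throughout. The adipose tissue was sequenced whole, with all its cell types. In such bulk tissue, fewer cells of a type and less RNA per cell cannot be told apart.

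Adipose tissue stores energy as triglyceride. During a fast, lipolysis releases fatty acids from this store for other organs, and after a meal insulin restrains lipolysis and favours uptake and storage. The study looked in these fish at tfeb, which encodes a transcription factor that turns on lysosome and autophagy genes when nutrients are scarce, and at smad genes, which encode the intracellular transducers of TGFβ signals.

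The measure was the normalized expression value per gene, on the scale of log2(value + 1), for 18606 fish genes. The interaction of a gene is its fasting effect in old fish (old fasted minus old refed) minus its fasting effect in young fish (young fasted minus young refed). The same number is the age difference in fasted fish (old minus young) minus the age difference in refed fish. Calls were made in limma, fitted to all fish and genes, where the adjusted p (Benjamini-Hochberg) was under 0.05. The genes are given by identifier, since no table used here pairs them with symbols. For that reason pathways are not described, and the cell types of the tissue, adipocytes included, were not checked by markers.

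The libraries differed before any gene was tested. Summed over all fish genes, the values came to 19 to 21.3 M units in old fasted, 14.3 to 17 M in old refed, 24.5 to 28.3 M in young fasted and 21 to 26.6 M in young refed fish, while the medians of all fish lay between 155 and 168 units. A rough depth, taken from the spacing of low values, was 20.4 to 38.4 M reads in old fish and 40.2 to 51.3 M in young fish, so depth and age cannot be told apart. The spike-in RNAs, synthetic transcripts with a level of their own in each library, differed with age by a similar amount in both feeding states, with old minus young at −0.33 on the log2 scale for fasted fish and −0.28 for refed fish. Spike-in levels also differed with feeding, here relative to the geometric mean of all fish. They were 1.07 to 1.2 in old fasted and 0.68 to 0.773 in old refed fish. In young fish they were 1.27 to 1.54 when fasted and 0.783 to 0.981 when refed.

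The fasting effect differed between ages for 2632 of 18606 genes, 14.1% of those tested. The interaction was positive for 1818 of these genes and negative for 814. Most differences were below a doubling: the median absolute interaction was 0.69 on the log2 scale (0.29 to 4.60), 508 genes reached 1 and 54 reached 2. Of the 54, 10 were positive and 44 negative, and 34 had a mean under 100 units. The share of genes called increased with expression, at 4.9%, 10.8%, 17.8% and 23.1% in the quartiles of mean level, lowest first.

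The sign of the interaction went with the direction in which young fish responded. Among the 1818 genes with a positive interaction, 1704 were called as lower in fasted than in refed young fish, and 5 as higher. Among the 814 with a negative interaction, 725 were called as higher in fasted than in refed young fish. The young contrast is one of the terms of the interaction, so these counts describe the genes and test nothing. Across all genes, 26% were called for the fasting effect in old fish and 53.1% in young fish, 4842 and 9881 genes. This order turned round on 2 other scales described further on, with 8429 genes in old and 7978 in young fish when each fish was divided by its total (CPM), and 14094 in old and 12103 in young fish when it was divided by its spike-in level. Of the 2632 genes, 143 had a called fasting effect in old fish only and 1426 in young fish only. A further 958 were called with the same sign at both ages, and 50 were called with opposite signs.

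Whether the response was smaller or larger in old fish was tested with the mean fasting effect over both ages. In this balanced design that effect is independent of the interaction if the groups have an equal spread. It was called for 53.3% of all genes. With both called, the response was smaller in old fish for 2090 of the 2632 genes (79.4%) and larger in old fish for 49, while 493 genes had no called mean fasting effect. Smaller and larger responses were not counted over all genes. Whether a smaller response in old fish is particular to the interaction genes is therefore not shown. The positive interactions held 1550 of the smaller responses and the negative ones 540.

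Age differences were then read separately in each feeding state. Over all genes, old fasted fish differed from young fasted fish at 1777 genes (9.55%), 1037 higher and 740 lower in old fish. Old refed fish differed from young refed fish at 5229 genes (28.1%), 2424 higher and 2805 lower in old fish. Over all genes the age differences had an SD of 0.39 log2 units among fasted fish and 0.55 among refed fish. Both lists shared 675 genes with the same sign, 38% of the fasted and 12.9% of the refed list, and 153 genes with opposite signs. Across all genes the age differences in fasted and in refed fish had a Pearson's r of 0.263, where the points are genes measured in the same 16 libraries. The median within-group SD of a gene was 0.17 in old fasted, 0.21 in old refed, 0.18 in young fasted and 0.20 in young refed fish. The refed groups, with more calls, thus had the slightly larger spread. The fit shares its estimate of the spread among all groups, so a larger spread in refed fish can itself add calls there. By how much was not tested. The count in fasted fish depended on single fish. It was 878, 740 and 768 without old fasted replicate 1, 3 or 4, and 807, 1158 and 843 without young fasted replicate 1, 3 or 4.

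Among the 2632 interaction genes, the age difference was called in fasted fish only for 378 genes (14.4%) and in refed fish only for 1735 (65.9%). It was called in both states for 213 genes, with opposite signs for 153 of them, and in neither for 306. Alone or with the other state, fasted fish had a call for 591 of the 2632 genes (22.5%), against 9.55% of all genes. Refed fish had a call for 1948 (74%), against 28.1% of all genes. A larger count in refed fish was thus found over all genes too, and is not particular to the interaction genes. Old and young fasted fish did not overlap at 935 of the 2632 genes (35.5%), against 19.9% of all genes. Old and young refed fish did not overlap at 1820 (69.1%), against 25.7% of all genes. These counts use the terms of the interaction itself and are a description.

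The state with the larger age difference was tested through the mean age effect over both feeding states. That effect is independent of the interaction if the groups have an equal spread. The median SD was slightly larger in the refed groups (0.21 and 0.20) than in the fasted groups (0.17 and 0.18). Independence is then approximate, and noise alone leans toward a larger difference in refed fish, by an amount that was not tested. When the mean age effect and the interaction are both called, an equal sign means that the age difference was larger in fasted fish. An opposite sign means that it was larger in refed fish. The mean age effect was called for 23% of all genes and for 916 of the 2632 interaction genes (34.8%). Fasted fish had the larger age difference for 76 of these genes and refed fish for 840, or 91.7%. Over all 4275 genes with a called mean age effect, the refed difference was the larger one, by size, for 73.7%. For the other 1716 interaction genes neither state can be called the larger. By size alone the refed difference was larger for 1113 of them, and for 11102 of all 18606 genes (59.7%). Without old fasted replicate 1 the interaction was called for 1683 genes, and without young fasted replicate 1 for 1727. The number with a larger age difference in fasted fish was 35 without old fasted replicate 1, 115 without old fasted replicate 2, and between these counts without any other fish. The number with a larger difference in refed fish was 549 without young refed replicate 4.

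**Figure D1:**
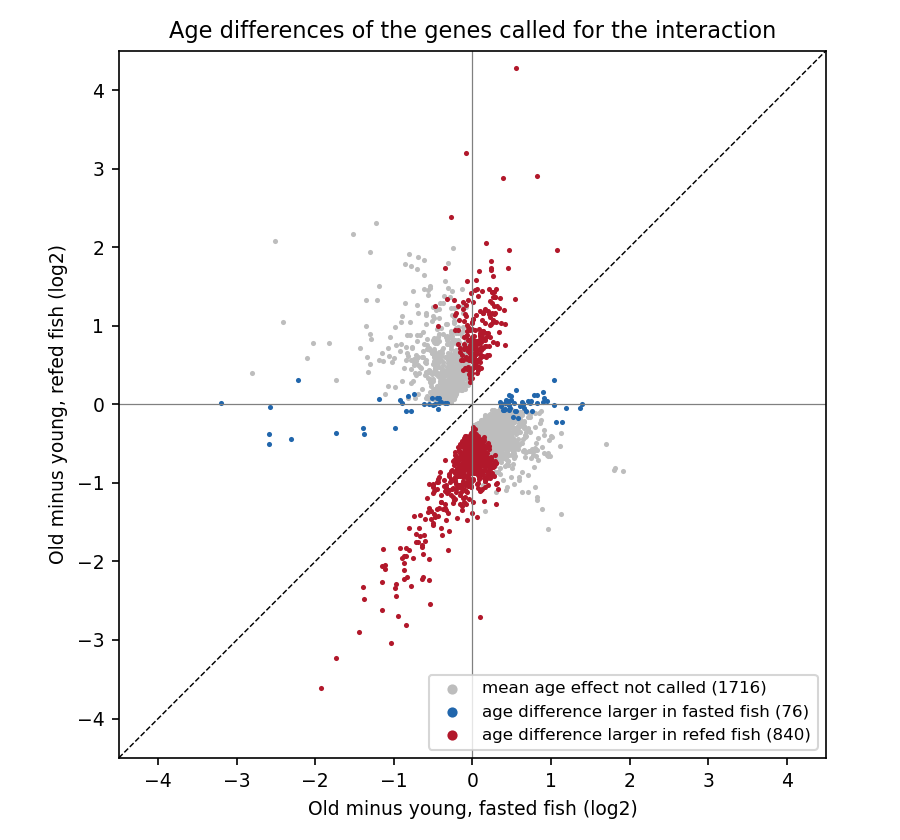
Age differences of the 2632 genes called for the interaction, old minus young, in fasted fish (x axis) and in refed fish (y axis), both in log2 units; the dashed line marks equal differences, where the interaction is 0. The 76 genes with a larger difference in fasted fish lie along the horizontal axis, the 840 with a larger difference in refed fish lie along the vertical axis and toward the lower left, and the 1716 genes in grey had no called mean age effect.

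The 4 classes that the tests gave had distinct profiles over the groups, which follow in part from how the classes were defined and are given without a test. Each fish was summarized by the median over the genes of a class of its log2 value relative to the young refed mean. In the 47 genes with a positive interaction and a larger age difference in fasted fish, the medians were −0.40 to −0.26 in old fasted, −0.15 to 0.09 in old refed, −0.97 to −0.83 in young fasted and −0.16 to 0.12 in young refed fish. Here the old refed fish lay within the range of the young refed fish, and the old fasted fish fell less far than the young fasted fish. In the 629 genes with a positive interaction and a larger difference in refed fish, the medians were −1.05 to −0.81 in old fasted, −0.76 to −0.70 in old refed, −0.97 to −0.76 in young fasted and −0.10 to 0.09 in young refed fish. In these genes both fasted groups were low, and old refed fish remained near them. Of the 629 genes, 242 (38.5%) were called as lower in fasted than in refed old fish, and 568 (90.3%) in young fish. In old fish 79 (12.6%) were called as higher in the fasted state. Over all genes a fasting effect of either sign was called for 26% in old and 53.1% in young fish. Calls in old fish were thus more frequent in this class than over all genes.

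The classes with a negative interaction mirrored this. In the 29 genes with a larger difference in fasted fish, the medians were 0.08 to 0.30 in old fasted, −0.07 to 0.09 in old refed, 0.84 to 1.10 in young fasted and −0.11 to 0.12 in young refed fish. The young fasted fish alone stood high. In the 211 genes with a larger difference in refed fish, the medians were 0.73 to 0.86 in old fasted, 0.75 to 0.89 in old refed, 0.61 to 0.78 in young fasted and −0.04 to 0.05 in young refed fish. The young refed fish alone stood low, and the old fish were at the fasted level in both states. Of these 211 genes, 24 were called as higher in the fasted than in the refed state in old fish, against 180 in young fish, while 20 were called as lower in the fasted state in old fish.

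**Figure D2:**
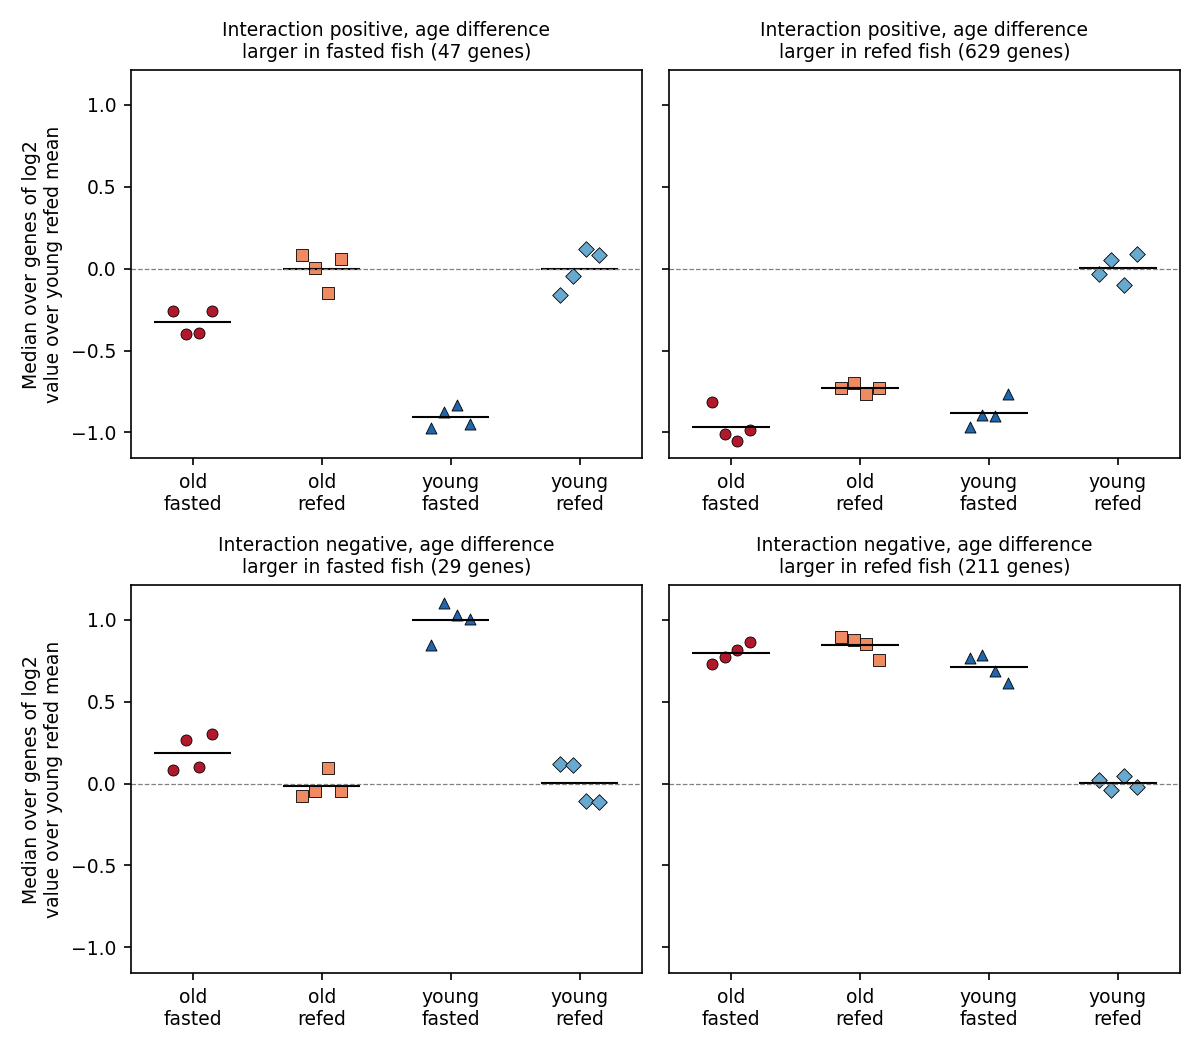
Median over the genes of each class of the log2 value relative to the young refed mean (y axis), for each of the 16 fish by group (x axis); points are fish and lines are group means. In the left panels old refed fish overlap young refed fish and old fasted fish lie away from young fasted fish, and in the right panels old refed fish lie away from young refed fish (between −0.76 and −0.70 in the upper one and between 0.75 and 0.89 in the lower one).

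The other interaction genes were chosen for a called interaction without a called mean age effect, so age differences of opposite sign in the 2 feeding states follow from the choice and are given as values only. For the 1142 of them with a positive interaction, the median age difference was 0.28 in fasted and −0.38 in refed fish, and the median fasting effect was −0.30 in old and −0.95 in young fish. For the 574 with a negative interaction, the median age difference was −0.31 in fasted and 0.43 in refed fish, and the median fasting effect was 0.00 in old and 0.78 in young fish. Over all 18606 genes these medians lay between −0.02 and 0.10.

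Each fish was also placed, without choosing genes by the interaction, on the line from the young refed mean (position 0) to the young fasted mean (position 1). Each young fish was placed on a line made without it. Old fasted fish stood at 0.637, 0.835, 0.829 and 0.788, and old refed fish at 0.401, 0.325, 0.409 and 0.386. Young fasted fish stood at 0.961, 0.929, 0.92 and 0.859, and young refed fish at 0.163, 0.164, 0.00519 and −0.058. On the deposited scale no old fish overlapped the young fish of its feeding state, and the old refed fish were farther from theirs. Both points depended on the scale, as given further on. The group means were 0.772 ± 0.093 for old fasted, 0.38 ± 0.038 for old refed, 0.917 ± 0.043 for young fasted and 0.069 ± 0.113 for young refed fish (SD, n = 4 each). The root mean square distance from the line was 0.399 to 0.493 log2 units per gene in old fasted, 0.569 to 0.617 in old refed, 0.359 to 0.536 in young fasted and 0.352 to 0.401 in young refed fish. The old refed fish thus lay farther off the young feeding line than any other fish, in addition to their place along it.

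Among the interaction genes, the state with the larger age difference depended on the scale. With each fish divided by its spike-in level, the median age difference of all genes moved to 0.32 in fasted and 0.31 in refed fish, so most genes were higher in old fish on this scale. The mean age effect is read against that shift. On the spike-in scale 1435 genes were called for the interaction, 1146 positive and 289 negative, and 1425 of them were called with the same sign on the deposited scale. Fasted fish then had the larger age difference for 360 genes and refed fish for 338. The larger group in fasted fish held 353 genes with a positive interaction and 7 with a negative one. The old refed fish stood at a mean position of −0.025, inside the range of the young refed fish (−0.119 to 0.247), and the old fasted fish at 0.661, below the young fasted fish (0.832 to 1.07). Positions are read against the shift too. The median fasting effect of all genes in young fish was −0.603 here, so a general rise in old fish lowers their positions. The size of this effect was not tested. Over all genes the age difference was called for 6938 genes in fasted and 7412 in refed fish. The distance of the old refed fish from the line was 0.668 to 0.797, again above all other fish.

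On the CPM scale, where each fish is divided by the total over its genes, the median age difference of all genes moved to 0.39 in fasted and 0.63 in refed fish. There the interaction was called for 1406 genes, of which 318 were positive and 1088 negative, the opposite balance to that on the deposited scale. In fasted fish the age difference was the larger one for 164 genes, and in refed fish for 1037, and over all genes it was called for 8756 genes in fasted and 13540 in refed fish. The refed majority lay in the negative interactions, with 992 genes in refed and 9 in fasted fish. Among positive interactions the balance was turned, at 45 in refed and 155 in fasted fish, against 629 and 47 on the deposited scale. With each fish centred on its own median gene, the counts over both signs were 77 in fasted and 980 in refed fish, and with median-of-ratios factors 80 and 932. Smaller responses of old fish stayed the more frequent ones, with 1192 smaller and 99 larger on the spike-in scale and 634 smaller and 74 larger on the CPM scale. The mean fasting effect is read against a shift there too. Its median over all genes was 0.04 on the deposited, −0.634 on the spike-in and −0.217 on the CPM scale. For the spike-in scale the median fasting effect of all genes was −0.672 in old and −0.603 in young fish. For the CPM scale it was −0.379 in old and −0.0614 in young fish, so the shift there differed more between the ages. The counts of smaller and larger responses on these scales depend on the shifts. Of the 76 genes with the larger difference in fasted fish on the deposited scale, 29 were in the same class on the spike-in scale and 11 on the CPM scale. Of the 840 with the larger difference in refed fish, 208 were in the same class on the spike-in scale and 241 on the CPM scale. Of the same 840, the difference was called as larger in fasted fish for 2 on the spike-in scale and for 48 on the CPM scale. Old refed fish had CPM positions of 0.153 to 0.227, overlapping the young refed fish (−0.0999 to 0.217). Old fasted fish stood at 0.554 to 0.744, below the young fasted fish (0.879 to 0.958). By group means the old fasted fish were then farther from theirs (0.679 against 0.924) than the old refed fish were (0.179 against 0.0702). These positions, too, are read against the shift of their scale.

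**Figure D3:**
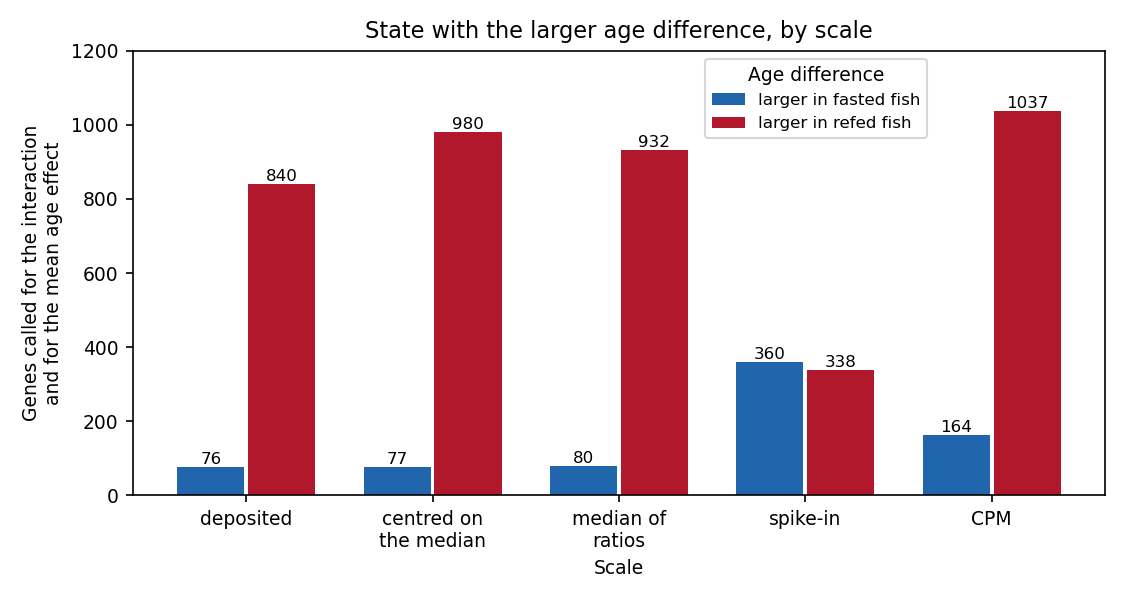
Number of genes called for both the interaction and the mean age effect (y axis, starting at 0) whose age difference was larger in fasted or in refed fish, on 5 scales (x axis). The refed bar is the higher one on 4 scales, with 840 against 76 genes on the deposited scale, whereas on the spike-in scale the bars are nearly level at 360 for fasted and 338 for refed fish. On the CPM scale this holds for negative interactions (992 refed, 9 fasted) and not for positive ones (45 refed, 155 fasted). The scales are not independent of each other. Of the interaction genes on the deposited scale, 94.5% were also called with median centring.

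**Figure D4:**
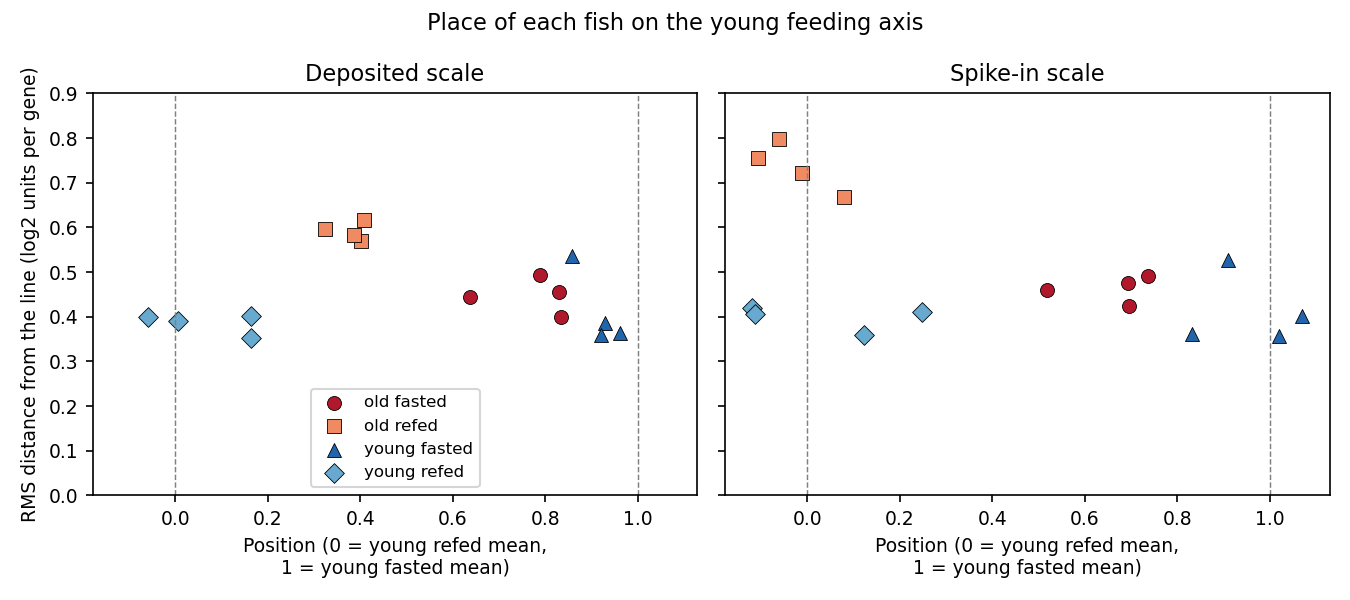
Position of each of the 16 fish on the line from the young refed mean (0) to the young fasted mean (1), on the x axis, and its root mean square distance from that line in log2 units per gene, on the y axis, on the deposited scale (left) and the spike-in scale (right). Old refed fish have the largest distance in both panels and lie between the young groups on the deposited scale (0.325 to 0.409) but beside the young refed fish on the spike-in scale. A general rise of old fish on the spike-in scale lowers their positions there. On the CPM scale, which is not drawn, old refed fish stood at 0.153 to 0.227, overlapping the young refed fish (−0.0999 to 0.217).

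The gene with the largest absolute interaction of each class, among those with a mean of at least 100 units, is given in single fish. It is the extreme of its class and need not be typical of it. In the class of positive interactions with a larger age difference in refed fish this was ENSNFUG00015018137. It had 114.3, 65.67, 84.41 and 72.74 units in old fasted, 138.6, 69.69, 203.2 and 122.2 units in old refed, 76.94, 83.61, 66.02 and 82.07 units in young fasted and 738.7, 1204, 704.7 and 719 units in young refed fish. Every young refed fish was above all other fish, and old refed fish overlapped old fasted fish. Its interaction was 2.81 ± 0.37 (SE, limma, adjusted p = 0.00101). The age difference was 0.10 ± 0.26 in fasted fish (adjusted p = 0.838) and −2.71 ± 0.26 in refed fish (adjusted p = 1.03e-05), a level in old refed fish 0.153 times that in young refed fish. The interaction of ENSNFUG00015018137 was called under every alternative run, at 2.53 to 3.04 with a fish left out.

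In the class of positive interactions with a larger difference in fasted fish it was ENSNFUG00015024269. It had 1910, 1060, 1437 and 1409 units in old fasted, 3908, 2775, 2952 and 3889 units in old refed, 481.1, 717.2, 467 and 565.8 units in young fasted and 2177, 3298, 5507 and 3555 units in young refed fish. Fasted fish were below refed fish at both ages, and every old fasted fish was above every young fasted fish, whereas the refed groups overlapped. Its interaction was 1.41 ± 0.34 (SE, limma, adjusted p = 0.0139). Old minus young was 1.37 ± 0.24 in fasted fish (adjusted p = 0.00541), a level in old fish 2.59 times that in young fish, and −0.04 ± 0.24 in refed fish (adjusted p = 0.913). The call was lost on the CPM scale, with an adjusted p of 0.057.

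In the class of negative interactions with a larger difference in refed fish it was ENSNFUG00015002962, whose values varied widely between fish. It had 954.6, 305.4, 938.7 and 417.2 units in old fasted, 2948, 13880, 5772 and 866.5 units in old refed, 962.8, 1063, 400 and 344.5 units in young fasted and 931.2, 126, 458.4 and 536.5 units in young refed fish. Old refed replicates 1, 2 and 3 were above all other fish, and old refed replicate 4 was below young refed replicate 1. Its interaction was −3.27 ± 1.05 (SE, limma, adjusted p = 0.0499), just inside the threshold. Old minus young was −0.08 ± 0.75 in fasted fish (adjusted p = 0.962) and 3.19 ± 0.75 in refed fish (adjusted p = 0.00517). Its fasting effect was −2.70 ± 0.75 in old fish (limma, adjusted p = 0.0151) and 0.57 ± 0.75 in young fish (adjusted p = 0.539). The gene is not typical of its class, where 20 of 211 genes were called as lower in the fasted state in old fish. The call of its interaction was lost in 7 of the 13 alternatives of scale and fit, and with 13 of the 16 fish left out in turn, where the adjusted p reached 0.0951. It held without old refed replicate 4, young fasted replicate 4 or young refed replicate 1.

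In the class of negative interactions with a larger difference in fasted fish it was ENSNFUG00015004094. It had 286.8, 168.1, 188.1 and 275.7 units in old fasted, 78.3, 68.09, 92.89 and 70.94 units in old refed, 677.6, 556.5, 490.2 and 642.7 units in young fasted and 151, 112.3, 63.19 and 77.11 units in young refed fish. Fasted fish were above refed fish at both ages, every old fasted fish was below every young fasted fish, and the refed groups overlapped. Its interaction was −1.08 ± 0.33 (SE, limma, adjusted p = 0.0421). Its age difference was −1.39 ± 0.24 in fasted fish (adjusted p = 0.00496), a level in old fish 0.382 times that in young fish, and −0.31 ± 0.24 in refed fish (adjusted p = 0.356). The call was lost on the spike-in scale (adjusted p = 0.0507) and without the trend in the variance (adjusted p = 0.053). It was also lost with 10 of the 16 fish left out in turn, and held without old fasted replicate 1 or 4, old refed replicate 2, young fasted replicate 3, or young refed replicate 1 or 2.

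**Figure D5:**
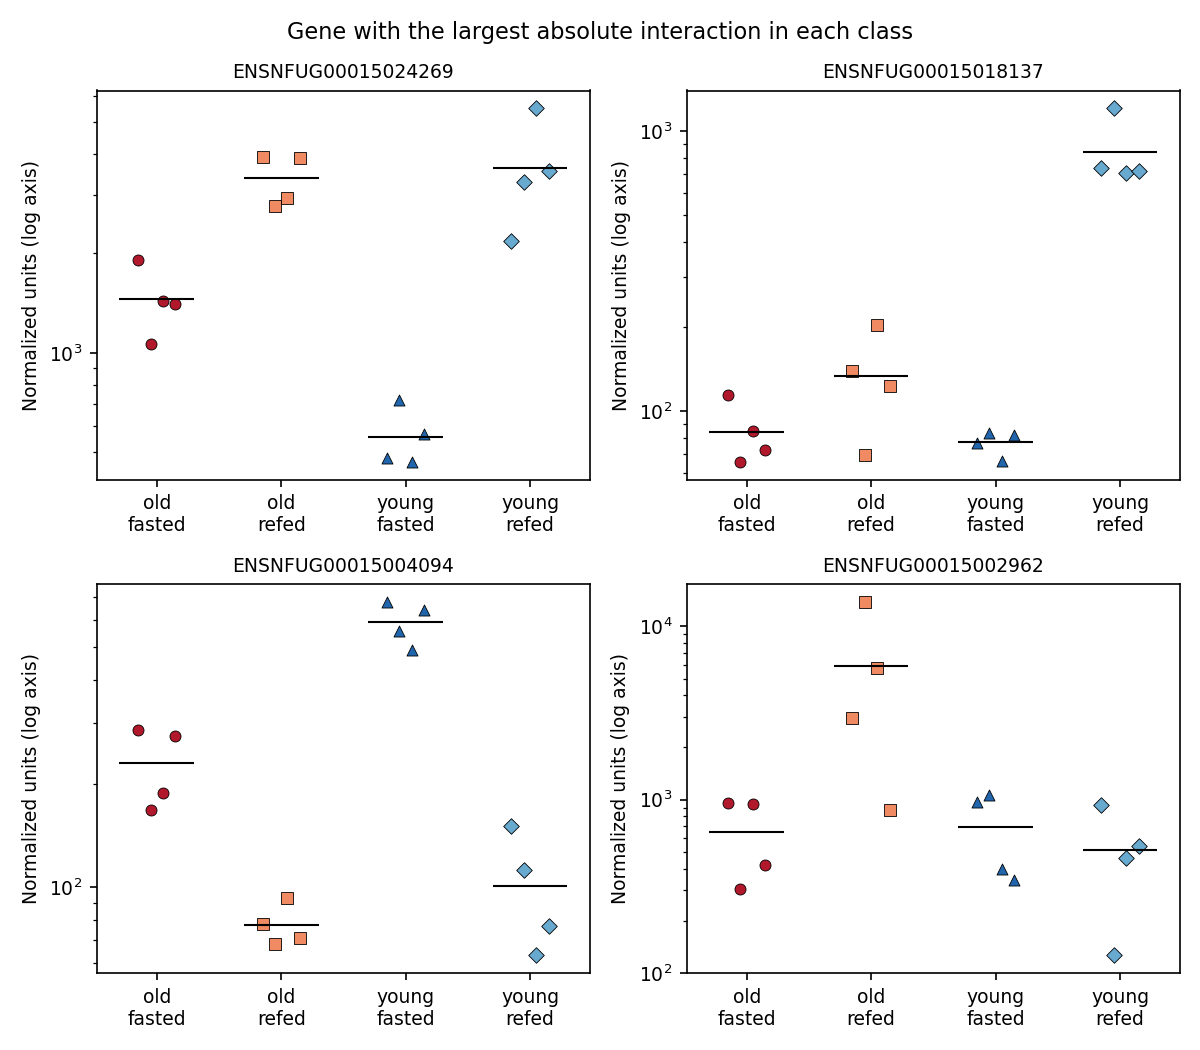
Normalized units (y axis, log scale) of the gene with the largest absolute interaction in each class, for each of the 16 fish by group (x axis); points are fish and lines are group means. ENSNFUG00015024269 and ENSNFUG00015004094, on the left, differ with age in the fasted groups, and ENSNFUG00015018137 and ENSNFUG00015002962, on the right, in the refed groups, with one old refed fish of ENSNFUG00015002962 at 866.5 units.

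The 4 genes that the study followed did not pass the test for the interaction. The study reported them as higher in fasted than in refed young fish, with some misregulated in older fish. It compared groups pairwise, which is another question than the interaction. The gene tfeb had 299.1, 281.2, 337.9 and 355.4 units in old fasted, 345, 297.9, 195.5 and 309.7 units in old refed, 235.2, 268.1, 235.6 and 175.6 units in young fasted and 125.5, 201.2, 170.9 and 137.8 units in young refed fish. All old fasted fish were above all young fasted fish, and in the refed state 1 old fish, replicate 3, was within the young range. The interaction of tfeb was −0.36 ± 0.26 (SE, limma, adjusted p = 0.353). Its mean age effect was called, at 0.66 ± 0.13 (adjusted p = 0.00172), and its age difference was 0.49 ± 0.18 in fasted fish (adjusted p = 0.102) and 0.84 ± 0.18 in refed fish (adjusted p = 0.00319). The fasting effect of tfeb was 0.17 ± 0.18 in old fish (adjusted p = 0.522) and 0.53 ± 0.18 in young fish (adjusted p = 0.0226), and the difference between these is the interaction, which did not pass.

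The gene smad2, whose product is activated by TGFβ receptors, averaged 319.1 ± 29.8 units in old fasted, 271 ± 18.6 in old refed, 375.5 ± 11.6 in young fasted and 259.8 ± 19.3 in young refed fish (SD, n = 4 each). Every old fasted fish was below every young fasted fish, while the refed groups overlapped. Its interaction was −0.30 ± 0.12 (SE, limma, adjusted p = 0.0952), with an age difference of −0.24 in fasted fish (adjusted p = 0.0793), which was 0.087 on the spike-in scale, and 0.06 in refed fish. The fasting effect of smad2 was 0.23 in old fish (limma, adjusted p = 0.0493), just inside the threshold, and 0.53 in young fish (adjusted p = 6.75e-05). The gene smad3b, whose product is activated in the same way, averaged 404 ± 78 units in old fasted, 235 ± 53.4 in old refed, 460.8 ± 81.5 in young fasted and 188.6 ± 13.2 in young refed fish. Its fasting effect was called at both ages, at 0.79 in old fish (adjusted p = 0.0035) and 1.27 in young fish (adjusted p = 1.48e-05), and its interaction was −0.48 ± 0.24 (adjusted p = 0.18).

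The gene smad4, which encodes the common partner of the receptor-activated transducers, averaged 173.5 ± 7.04 units in old fasted, 114.1 ± 8.72 in old refed, 211.9 ± 12.3 in young fasted and 125.1 ± 34 in young refed fish (SD, n = 4 each). The old fasted fish were below all young fasted fish, at 167.2 to 181.3 units against 198 to 226.6 units, and the refed groups overlapped. Its interaction was −0.19 ± 0.20 (SE, limma, adjusted p = 0.532), with an age difference of −0.29 in fasted fish (adjusted p = 0.205), which was 0.039 on the spike-in scale, and −0.10 in refed fish (adjusted p = 0.639). The fasting effect of smad4 was called at both ages, at 0.60 in old fish (limma, adjusted p = 0.00581) and 0.79 in young fish (adjusted p = 0.000211). The interaction of each of the 4 genes was negative on the deposited, CPM, spike-in and median-centred scales and passed the test on none of them.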

How the data were processed

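The authors removed ribosomal and transfer RNA reads, pseudo-aligned the rest to Nfu_20140520 with kallisto 0.45.0 and compared groups with DESeq2 1.24.0. Per gene and fish, the deposited table gives a normalized signal whose scaling no source used here states. Spacing of low values gave an approximate depth only, since 68.5% to 82.1% of low values lay within 0.1 of a step, so no counting interval is given. Columns not mapped to a fish numbered 0.

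Log2(value + 1) was modelled in R 4.3.3 by limma 3.58.1 with a trended eBayes step, 16 fish in 4 groups, Benjamini-Hochberg adjusted over 18606 genes; such fold changes understate those of low genes. The fit left out the 74 ERCC rows (spike-ins), 42 of which set the spike-in level. A total of 268 rows lie in 32 sets of identical values, 4 of these rows among the interaction genes, and 161 rows are at 0 in at least 1 fish, 2 of these among the interaction genes. Genes with identical rows cannot be told apart.

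No identifier matched the 38438 genes of the RefSeq table (0 matches), so the gene lists and cell type markers could not be applied and no sequences are shown. The rule then named, in each class, the identifier with the largest absolute interaction and a mean of at least 100 units, plus tfeb, smad2, smad3b and smad4. Rows of these study genes were found by matching published z-scores of the young fish. For each gene the young fish were first rescaled by factors fitted to the z-scores of the other study genes. After this rescaling the largest difference was 6.85e-06, and the next row differed by at least 0.116. The comparison, tests and lists were chosen with earlier results of these data known.

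Alternatives were log2 CPM (prior 2), spike-in and median-of-ratios scales, pseudocounts of 0.1 and 5, a filter of 10 units in 4 fish, leaving out the 50 most abundant genes, merging identical rows, no trend, robust eBayes, a replicate block, a threshold of 0.01 and each fish left out. Median centring, and positions from genes of at least 100 units, were added after seeing the data. Figures used matplotlib 3.10.9.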

Additional observations from a re-analysis of the deposited data

Results flagged for a closer look

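The count of 2632 genes with a fasting effect that differed between the ages, and the interactions of ENSNFUG00015018137 (2.81), ENSNFUG00015024269 (1.41), ENSNFUG00015002962 (−3.27) and ENSNFUG00015004094 (−1.08), come from a test of the difference between ages itself. The last 2 of these genes lost their call when most single fish were left out. In 40 groups of 4 fish examined for a fish far from the others, 3 stood out beyond Dixon's critical value of 0.829, and chance alone gives about 1 in 20. Young fasted replicate 4 had a distance of 0.536 from the young feeding line. Young refed replicate 2 had 1204 units of ENSNFUG00015018137. Young refed replicate 1 had 208.3 units of smad3b (ENSNFUG00015007897).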

How the results depend on the processing

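Of 13 alternatives of scale and fit, the interaction count stayed within 1.5 times in 10, but balances between counts turned on 2 scales. On the CPM scale the interaction was called for 1406 genes, 318 positive and 1088 negative, against 1818 and 814 on the deposited scale. The age difference was larger in fasted fish for 164 and in refed fish for 1037, the response smaller in old fish for 634 and larger for 74. Among positive interactions alone the age difference was larger in fasted fish for 155 and in refed fish for 45. Age differences were called for 8756 genes in fasted and 13540 in refed fish, and the fasting effect for 8429 in old and 7978 in young fish, a turned order (4842 and 9881 on the deposited scale). The fasted share of the interaction is the part of the summed squared interaction that the fasted age difference gives. It was 29.3% on the deposited and 7.68% on the CPM scale. This share uses the terms of the interaction itself and is a description. Equal parts would be 50%, but the larger spread in refed fish lowers the share by noise alone, by an amount not tested. Mean positions on the CPM scale were 0.679 for old fasted and 0.179 for old refed fish.

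On the spike-in scale the interaction was called for 1435 genes, 1146 positive and 289 negative. The age difference was larger in fasted fish for 360 and in refed fish for 338, and the response was smaller in old fish for 1192 and larger for 99. These last balances were 76 and 840, and 2090 and 49, on the deposited scale. Age differences were called for 6938 genes in fasted and 7412 in refed fish, the fasting effect for 14094 in old and 12103 in young fish, again a turned order, the fasted share was 43%, and positions were 0.661 for old fasted and −0.025 for the old refed group. With the threshold set to 0.01 the counts were 740 (648 positive, 92 negative), 5 larger in fasted and 201 in refed fish, 658 smaller and 3 larger responses in old fish, 303 genes for the age difference in fasted and 2904 in refed fish, and 2414 for the fasting effect in old and 7374 in young fish.

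Same-numbered fish did not deviate together (mean correlation −0.030 over 24 pairs, 2 of them above 0.1, and 2 of 16 fish closest to their own number). With the number as a replicate block the interaction was called for 2105 genes, with a larger age difference in fasted fish for 48, a larger response in old fish for 27, and 1162 genes for old against young in fasted fish. ENSNFUG00015002962 was then not called.

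With each fish left out, which also removes a sample, the ranges were 1683 to 2758 for the interaction, 1280 to 1954 for positive and 403 to 899 for negative ones, 35 to 115 genes larger in fasted and 549 to 823 in refed fish, 1390 to 2259 smaller and 16 to 110 larger responses in old fish. Age differences ranged over 740 to 1925 genes in fasted and 4143 to 5372 in refed fish. Fasted against refed ranged over 3606 to 4954 genes in old and 8804 to 10090 in young fish, the fasted share over 23.8% to 36.9%, and positions over 0.744 to 0.817 for old fasted and 0.369 to 0.401 for old refed fish. Positions from genes with a mean of at least 100 units were 0.818 and 0.364. The causes were not tested. Old fish had a lower rough depth than young fish, as estimated from the spacing of low values. The study states the same approximate number of sequenced reads for every sample. The rough depth covers only what was assigned to fish genes, so it and the study's number are unlike measures. Depth, age and scale cannot be told apart here.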
